A study of Mus musculus with 33 samples.

Results

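The genes described here are 10 genes of heme and iron recycling, *Cd163*, *Hmox1*, *Blvrb*, *Slc11a1*, *Slc11a2*, *Tfrc*, *Ftl1*, *Fth1*, *Slc40a1* and *Spic*, chosen by symbol from the 24421 genes listed in the count files. All 10 were found, and all 10 passed the filter on low counts in every comparison. RNA was sequenced in bulk from 33 samples, each of 25000 sorted macrophages (macs), either Kupffer cells (KCs, the resident macs of the liver) or alveolar macrophages (AMs, the macs of the lung airspaces) of mice on a C57Bl/6 background, male and female, at 6 to 8 weeks of age. The transcription factor gene *Zeb2* was floxed in every mouse. CRE- KCs (n = 6) and CRE- AMs (n = 5) came from *Zeb2* fl/fl mice without a Cre. *Zeb2* fl/fl mice that also carried *Clec4f-cre* gave the CRE+ KCs, sorted by the surface protein Tim4 into Tim4+ KCs (n = 6) and Tim4- KCs (n = 6). Those with *Itgax-cre* gave the CRE+ AMs, sorted by CD11b into CD11b- AMs (n = 5) and CD11b+ AMs (n = 5). *Clec4f-cre* also acts in a minor group of B cells and *Itgax-cre* in other CD11c-expressing cells, and the CRE+ groups can hold cells that kept a copy of *Zeb2*. Tissue and Cre line go together and cannot be told apart.

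Macs clear aged red cells and free hemoglobin and return the iron to the circulation. Hemoglobin bound to haptoglobin enters through CD163, heme oxygenase-1 (*Hmox1*) opens the heme ring to release iron, and the iron is then either stored in ferritin (*Ftl1*, *Fth1*) or exported by ferroportin (*Slc40a1*). *Spic* encodes a heme-inducible transcription factor needed for splenic macs that handle red cells, and KCs share this work in the liver, whereas AMs meet inhaled particles and little blood. Much of iron control acts after transcription, through stem-loops in messenger RNA called iron-responsive elements, which iron regulatory proteins bind when iron is low.

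The stem-loops of the genes that hold them are shown first, as reads per gene do not measure the translation or decay that they control. Annotated untranslated regions of GENCODE M21 (GRCm38) were searched on the transcript strand for a C, 5 bases, CAGTG with A, C or T, and 5 bases that pair with the first 5, G with T allowed. The capitals mark the 6 bases of the loop, and the unpaired C is base 6.
*Fth1*, 5′ untranslated region, chr19:9982733-9982759, plus strand: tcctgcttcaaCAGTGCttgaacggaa
*Ftl1*, 5′ untranslated region, chr7:45459780-45459806, minus strand: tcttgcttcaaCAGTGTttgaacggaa
*Slc40a1*, 5′ untranslated region, chr1:45925466-45925492, minus strand: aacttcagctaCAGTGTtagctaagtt
*Tfrc*, 3′ untranslated region, chr16:32631220-32631246, plus strand: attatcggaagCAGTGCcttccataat
*Tfrc*, 3′ untranslated region, chr16:32631599-32631625, plus strand: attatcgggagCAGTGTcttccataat
*Tfrc*, 3′ untranslated region, chr16:32631664-32631690, plus strand: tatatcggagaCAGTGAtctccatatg
*Tfrc*, 3′ untranslated region, chr16:32631711-32631737, plus strand: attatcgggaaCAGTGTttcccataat
*Slc11a2*, 3′ untranslated region, chr15:100395154-100395180, minus strand: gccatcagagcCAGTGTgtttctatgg
By their letters, all 5 pairs can form in the sites of *Fth1*, *Ftl1*, *Slc40a1* and *Tfrc*, and 4 of 5 in the site of *Slc11a2*. The first 5 and last 5 bases shown were not part of the search. Between them 4 or 5 pairs can form in the other sites, and 1 of 5 in that of *Slc11a2*. Among 21718 genes with an annotated untranslated region, 0.557% held a match with 5 pairs and 3.67% a match with 4 or 5. No match was found in *Hmox1*, *Spic*, *Cd163*, *Slc11a1* or *Blvrb*, which says only that these letters are not in their annotated regions. A match is a description of the sequence and not a measured site.

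Between 9837240 and 24332306 reads per sample fell on genes, and the lowest total was that of Tim4- KC replicate 1. *Zeb2* was lower in all 4 CRE+ groups, with a mean of 282 CPM (reads scaled to the library total, after TMM normalisation) in CRE- KCs, 174 in Tim4+ and 169 in Tim4- KCs, and of 195 CPM in CRE- AMs, 105 in CD11b- and 62.5 in CD11b+ AMs. The deleted allele still makes a truncated transcript, so these counts check the deletion only in part. *Timd4*, which encodes Tim4, was at most 8.19 CPM in Tim4- KCs and at least 281 CPM in Tim4+ KCs, and *Itgam*, which encodes CD11b, was at least 235 CPM in CD11b+ AMs and at most 22.7 CPM in CD11b- AMs. The summed level of 5 KC markers was at least 9617 CPM in KCs and at most 1319 CPM in AMs. Its median was 22899 CPM in CRE-, 14571 in Tim4+ and 10486 CPM in Tim4- KCs. *Marco*, part of this list, did not separate the tissues, with means of 602 CPM in CRE- KCs, 256 in Tim4- KCs, 409 in CRE- AMs and 952 CPM in CD11b+ AMs. Of red cell markers, 11 erythroid genes summed to at most 1.39 CPM in any sample. *Hba-a1*, *Hba-a2*, *Hbb-b2* and *Hbb-bt*, near-identical copies whose shared reads may not be counted, were listed at 0 throughout, and *Alas2*, the erythroid enzyme of heme synthesis, reached 11.2 CPM in KCs and 2.45 CPM in AMs. Replicates 5 and 6 of each KC group carried reads of Y-linked genes and all other samples almost none, so values within KC replicates 1 to 4 and within 5 and 6 are given where a KC call was made. As the AM samples carried almost none, comparisons between KCs and AMs are not balanced for these reads.

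In control cells, the recycling genes other than ferritin stood higher in KCs than in AMs, most of them by far. *Slc11a2* differed least of these, by 0.89 in log2. Of the 10 genes, 8 were higher in CRE- KCs and *Fth1* was lower by edgeR's quasi-likelihood test (adjusted p-value under 0.05), while 63.2% of all tested genes differed, 33.3% higher and 29.9% lower. The median log2 fold change of KCs over AMs was 2.94 over the 10 genes and 0.029 over all genes. Every CRE- KC sample lay above every CRE- AM sample for the same 8 genes, and below for *Fth1*. The share of all genes that separate in this way was not computed, so this count has no baseline. In each group of KCs, *Slc40a1* and *Ftl1* were among the 3 genes with the highest mean CPM of all genes, whereas *Slc40a1* ranked 5473rd in CRE- AMs.

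**Figure D1:**
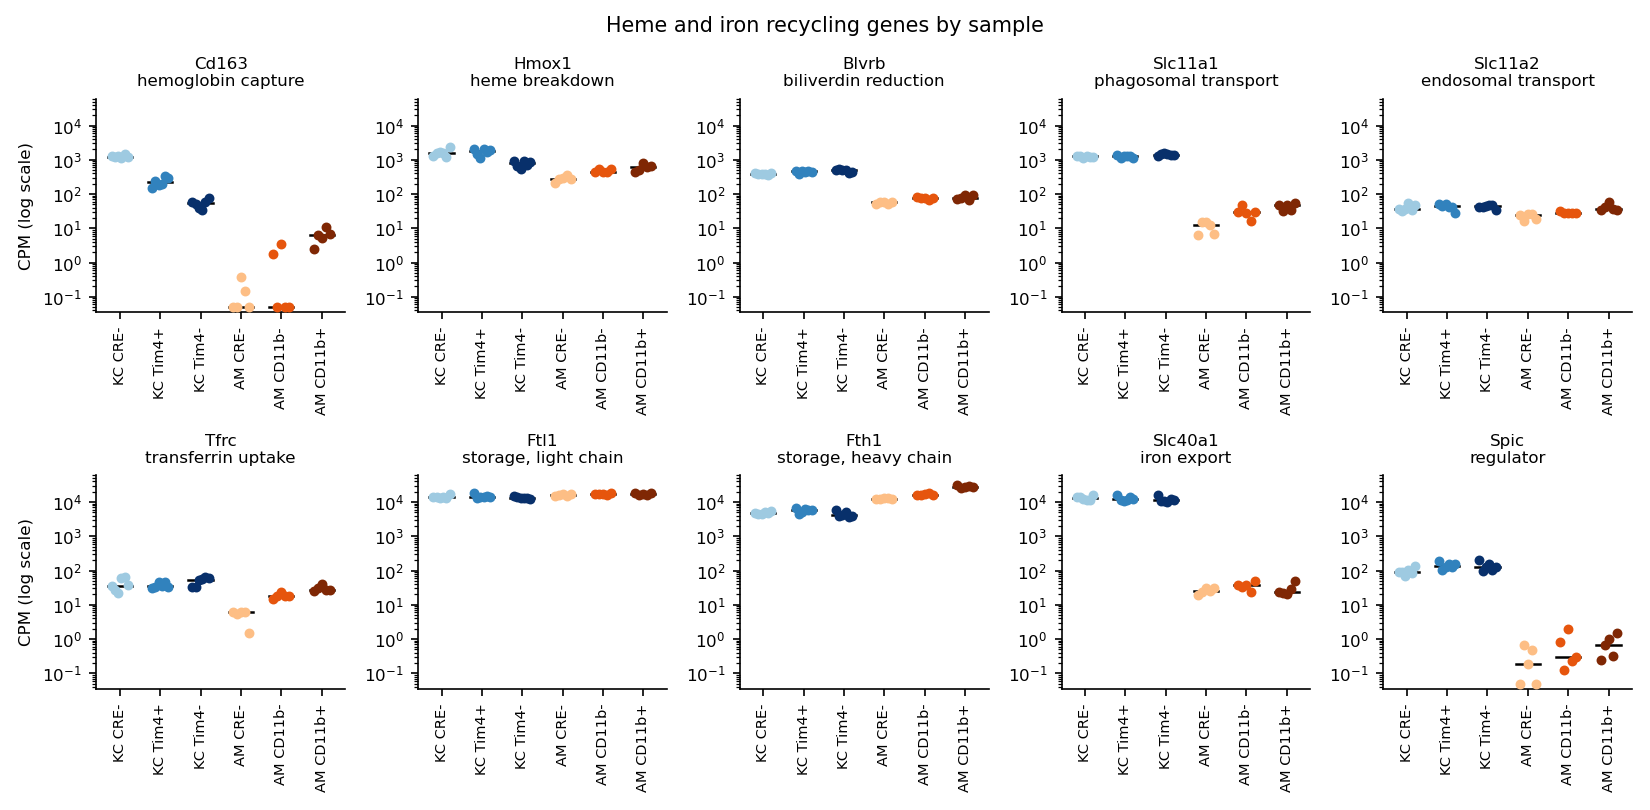
Level of each gene in every sample, as CPM on a log scale, with a point per sample, a bar at the group median and samples without a count drawn at the lower edge. KC groups are blue (n = 6 each) and AM groups orange (n = 5 each). *Slc40a1*, *Spic*, *Cd163* and *Slc11a1* separate the tissues most, *Ftl1* is level throughout, and *Cd163* falls in steps across the KC groups from a median of 1232 to 53.5 CPM.

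Levels of different genes were compared per kilobase of the principal transcript. In CRE- KCs the order began with *Ftl1* at 14815 ± 1479 CPM per kb (SD, n = 6), followed by *Slc40a1* at 3847 ± 532, *Fth1* at 3210.3 ± 274, *Hmox1* at 1029 ± 264 and *Slc11a1* at 534 ± 20.8 CPM per kb. The samples of *Slc40a1* and *Fth1* overlapped, so these neighbours were not separated. *Blvrb* had 382 ± 15.5 and *Cd163* 288 ± 31.4 CPM per kb, an order that turned around when all annotated exons were used as the length. *Spic*, *Slc11a2* and *Tfrc* were lowest, at 54.1, 13.4 and 8.35 CPM per kb. In CRE- AMs (n = 5) the order was *Ftl1* at 16715 ± 936, *Fth1* at 8445 ± 281, *Hmox1* at 178 ± 34 and *Blvrb* at 53.8 ± 3.96 CPM per kb, and the 6 other genes were each at most 7.68 CPM per kb on average.

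In CRE+ against CRE- cells, the genes called in AMs were all higher, whereas those called in Tim4- KCs went in both directions. In Tim4+ KCs, 1 of 10 genes was called lower than in CRE- KCs, where 6.09% of all genes were called and 2.46% were lower. In Tim4- KCs it was 4 of 10, with 2 higher and 2 lower, against 25.4% of all genes called, 12.2% higher and 13.2% lower. In CD11b- AMs, 5 of 10 genes were higher and none lower, against 25.7% of all genes called in either direction and 13.3% called higher. In CD11b+ AMs, 7 of 10 were higher and none lower, against 43.2% and 22.8%. The median log2 fold change over the 10 genes was 0.04 in Tim4+ and -0.01 in Tim4- KCs, and 0.64 in CD11b- and 1.12 in CD11b+ AMs, while the median over all genes was at most 0.031 from 0 in each. Both CRE+ groups of a tissue were compared with the same CRE- samples. The KC shares lie near those of all genes, and the 10 genes are described below one by one.

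**Figure D2:**
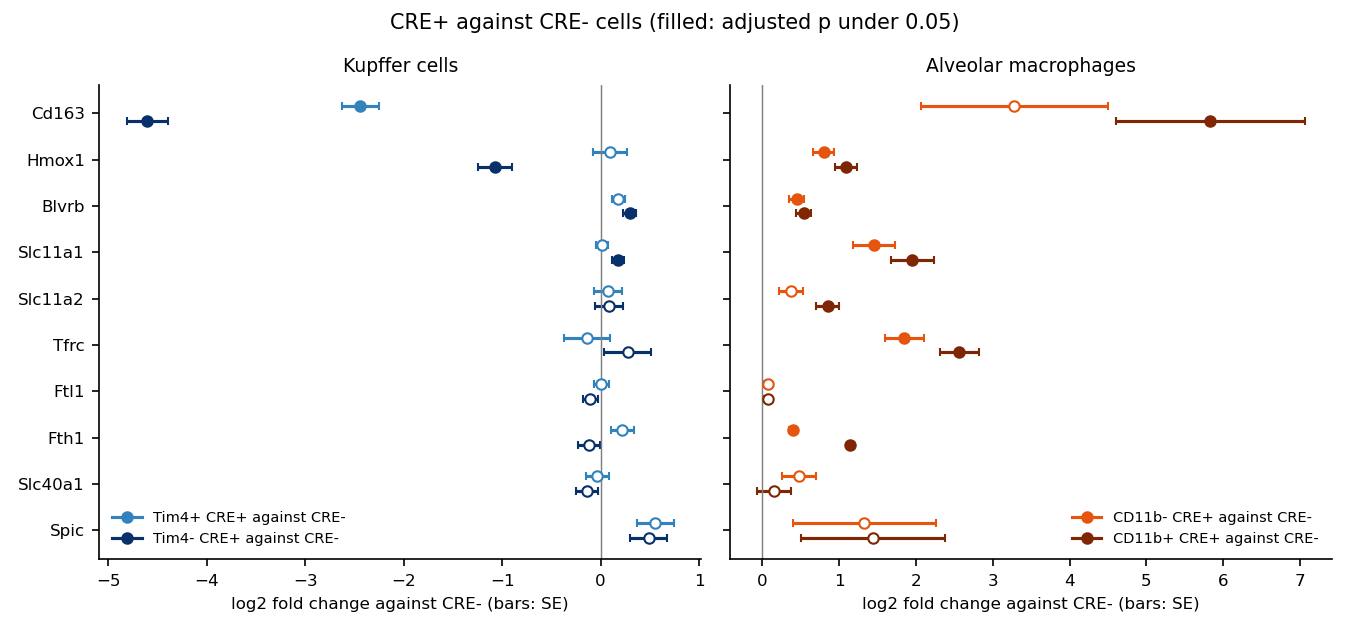
Log2 fold change of each gene in CRE+ cells against CRE- cells of the same tissue, with its standard error, for Tim4+ and Tim4- KCs on the left and CD11b- and CD11b+ AMs on the right. Filled points passed the test. In KCs, *Cd163* lies at -2.44 and -4.60 and *Hmox1* at -1.07 in Tim4- cells, while in AMs the filled points all lie to the right of 0.

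*Cd163*, the scavenger receptor for hemoglobin and haptoglobin (chromosome 6, 124304656 to 124330527), had the largest change of the 10 genes in KCs. Its level ran from 1104 to 1512 CPM in CRE- KCs (median 1232), from 155 to 343 in Tim4+ KCs (median 222) and from 35 to 74.8 in Tim4- KCs (median 53.5). The 3 groups did not overlap in any sample. The log2 fold change was -2.44 (SE 0.189, adjusted p = 2.51e-08) in Tim4+ KCs, -4.60 (SE 0.209, adjusted p = 1.01e-11) in Tim4- KCs and -2.16 (SE 0.189, adjusted p = 6.09e-07) between Tim4- and Tim4+ KCs. Within KC replicates 1 to 4 the first 2 values were -2.66 and -4.76, and within replicates 5 and 6 they were -2.13 and -4.36. In bulk samples, fewer expressing cells and less RNA per cell cannot be told apart. The paper lists *Cd163* among genes that differ between monocyte-derived and embryonic KCs. It defines KCs of these CRE+ mice without *Timd4* and *Siglecf* as putative monocyte-derived cells that kept a copy of *Zeb2*. KCs with SiglecF had deleted *Zeb2* by the paper's tests. Here *Siglecf* averaged 4.51 CPM in CRE-, 168 in Tim4+ and 289.7 CPM in Tim4- KCs. The Tim4- samples therefore do not consist of those putative monocyte-derived cells alone. The part of cell origin in the change of *Cd163* was not tested.

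In AMs *Cd163* was at the edge of detection. CRE- AMs had 0, 0, 8, 3 and 0 reads in replicates 1 to 5, CD11b- AMs had 36, 0, 75, 0 and 0, and CD11b+ AMs had 42, 123, 101, 205 and 116. Every CD11b+ AM sample lay above every CRE- AM sample, whereas CD11b- AMs overlapped both other groups. The fitted log2 fold change in CD11b+ AMs was 5.83 (SE 1.23, adjusted p = 0.000642), a size that depends on the small count edgeR adds, since 3 of 5 CRE- samples had no read. The mean of 6.36 ± 3.01 CPM (SD, n = 5) in CD11b+ AMs remained below that of Tim4- KCs, 52.6 ± 14.6 CPM (SD, n = 6). *Cd163* was also called higher in CD11b+ than in CD11b- AMs (adjusted p = 0.0459), a call that DESeq2 did not make (adjusted p = 0.244) and that was lost on leaving out any of 8 of the 10 samples of these groups.

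*Hmox1*, the rate-limiting enzyme of heme breakdown (chromosome 8, 75093621 to 75100589), went down in Tim4- KCs and up in AMs. It ran from 1195 to 2374 CPM in CRE- KCs (median 1562), from 1153 to 2129 in Tim4+ KCs (median 1831) and from 548 to 937 in Tim4- KCs (median 800.3). CRE- and Tim4+ KCs overlapped over most of their range, and all 6 Tim4- samples lay below both. The log2 fold change was 0.10 (SE 0.17, adjusted p = 0.847) in Tim4+ KCs, -1.07 (SE 0.172, adjusted p = 0.000106) in Tim4- KCs and -1.17 (SE 0.173, adjusted p = 0.000128) between Tim4- and Tim4+ KCs. The fall in Tim4- KCs was -1.01 within replicates 1 to 4 and -1.18 within replicates 5 and 6. Between Tim4- and Tim4+ KCs it was -1.14 and -1.20, and with 2 samples per group in replicates 5 and 6 the latter missed the threshold (adjusted p = 0.0633).

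In CRE- AMs *Hmox1* was at 206, 271, 298, 354 and 271 CPM, in CD11b- AMs at 433, 546, 444, 454 and 554 CPM, and in CD11b+ AMs at 444, 503, 793, 617 and 641 CPM. All CRE+ AM samples lay above all CRE- AM samples, and the CRE+ groups overlapped each other. The log2 fold change was 0.80 (SE 0.14, adjusted p = 0.000269) in CD11b- and 1.09 (SE 0.14, adjusted p = 2.68e-06) in CD11b+ AMs, and 0.29 (adjusted p = 0.112) between them. The CD11b+ AM samples at 617, 641 and 793 CPM and the CD11b- AM sample at 554 CPM were within the range of Tim4- KCs.

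The gene most like *Hmox1* over the 18 KC samples was *Slc48a1*, which encodes the HRG1 transporter that moves heme out of the phagolysosome, with a Pearson r of log2 CPM of 0.968 among 12499 genes compared. *Nceh1* (r = 0.935) and *Ctsd* (r = 0.929) followed. These samples form 3 groups and share a TMM scaling, and within CRE-, Tim4+ and Tim4- KCs r was 0.806, 0.964 and 0.927 with 6 samples each. *Slc48a1* itself differed by 0.07 in log2 in Tim4+ KCs (adjusted p = 0.846) and -0.64 in Tim4- KCs (adjusted p = 0.00068), as *Hmox1* did in direction. In AMs it went the other way from *Hmox1*, with -0.88 (adjusted p = 6.71e-07) in CD11b- and -1.95 (adjusted p = 2.16e-12) in CD11b+ AMs. The change of *Slc48a1* differed between the tissues by 1.14 in log2 (adjusted p = 3.2e-07 for the interaction) and that of *Hmox1* by -1.42 (adjusted p = 5.37e-06).

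**Figure D3:**
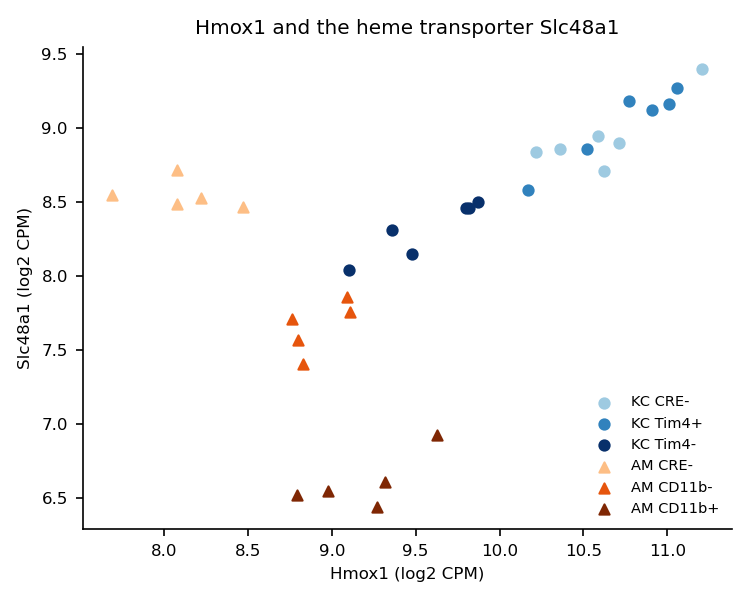
*Slc48a1* against *Hmox1* in every sample, both in log2 CPM, with KC samples as circles and AM samples as triangles. The 18 KC samples lie along a rising line with Tim4- KCs at its lower end (r = 0.968), whereas the AM groups step down and to the right from CRE- to CD11b+ cells.

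*Blvrb*, biliverdin reductase B (chromosome 7, 27447978 to 27466144), moved little but with a small spread. It ran from 365 to 412 CPM in CRE- KCs (median 394), from 391 to 486 in Tim4+ KCs (median 459.5) and from 418 to 525 in Tim4- KCs (median 511). Tim4- KCs did not overlap CRE- KCs and differed by 0.30 in log2 (SE 0.069, adjusted p = 0.00337), and Tim4+ KCs overlapped both, with 0.18 (SE 0.069, adjusted p = 0.147). The rise in Tim4- KCs was 0.37 within replicates 1 to 4 (adjusted p = 0.00446) and 0.13 within replicates 5 and 6 (adjusted p = 0.485). In AMs the values were 52.2, 58.6, 57.4, 49.7 and 58.5 CPM in CRE- cells, 80.3, 76.3, 78.5, 65.5 and 76.6 in CD11b- cells, and 74.1, 78.4, 92.1, 65.6 and 95.4 in CD11b+ cells. Both CRE+ groups lay above all CRE- samples, with log2 fold changes of 0.45 (adjusted p = 0.00187) and 0.54 (adjusted p = 0.000134). Of the 5 genes listed for heme breakdown, 2 were called higher and 3 lower in CD11b+ AMs, against 43.2% of all genes called. The 3 lower genes were biliverdin reductase A (*Blvra*, -0.64, adjusted p = 7.45e-07), the constitutive heme oxygenase *Hmox2* (-0.20, adjusted p = 0.0323) and *Por*, which supplies electrons to heme oxygenase (-0.33, adjusted p = 0.00389).

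Among the importers, the transferrin receptor *Tfrc* (chromosome 16, 32608920 to 32632794) rose most in AMs. It was at 6.18, 5.48, 6.01, 6.26 and 1.48 CPM in CRE- AMs, at 14.3, 18, 23.5, 17.9 and 18 CPM in CD11b- AMs, and at 26.1, 31.6, 39.5, 27.4 and 27.5 CPM in CD11b+ AMs. The 3 groups did not overlap, and CRE- AM replicate 5 stood below the other CRE- samples with 29 reads. The log2 fold change was 1.85 (SE 0.253, adjusted p = 2.08e-05) in CD11b- and 2.56 (SE 0.257, adjusted p = 8.57e-08) in CD11b+ AMs. The step of 0.72 between them (adjusted p = 0.0234) was lost without CD11b- AM replicate 1 (adjusted p = 0.0626) or CD11b+ AM replicate 3 (adjusted p = 0.0698). In KCs *Tfrc* varied from 22.7 to 62.8 CPM within CRE- cells alone, and neither CRE+ group passed (log2 fold changes -0.14 and 0.28, adjusted p = 0.847 and 0.427).

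*Slc11a1* (chromosome 1, 74375195 to 74386062) encodes NRAMP1, which pumps metal ions out of the phagosome. C57Bl/6 mice carry a loss-of-function allele of it, so its reads do not measure a working transporter. In CRE- AMs it was at 6.23, 14.8, 15.6, 12.5 and 6.7 CPM, in CD11b- AMs at 29.9, 48.7, 28.1, 16.1 and 30.2 CPM, and in CD11b+ AMs at 47.4, 33, 48, 34.8 and 55.3 CPM. All CRE+ AM samples were above all CRE- AM samples, with log2 fold changes of 1.46 (SE 0.274, adjusted p = 0.000534) and 1.95 (SE 0.276, adjusted p = 8.46e-06). The highest AM sample, at 55.3 CPM, was far under the KC range of 1136 to 1542 CPM. In Tim4- KCs *Slc11a1* was called higher by 0.17 in log2 (SE 0.06, adjusted p = 0.0388), but the groups overlapped and the call was lost on leaving out any of 9 of the 12 samples compared, and within each set of KC replicates (0.21 and 0.11, adjusted p = 0.102 and 0.542).

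*Slc11a2* (chromosome 15, 100387898 to 100425072), or DMT1, carries iron out of endosomes after transferrin uptake. It was at 25, 16.3, 25.6, 26.3 and 18.5 CPM in CRE- AMs, at 32.7, 27.6, 28.1, 28.9 and 27.2 CPM in CD11b- AMs, and at 33.2, 42.2, 57.5, 35.6 and 34.6 CPM in CD11b+ AMs. No sample overlapped between the 3 groups, though only CD11b+ AMs passed the test against CRE- AMs (0.85, SE 0.153, adjusted p = 0.000139), CD11b- AMs having 0.37 (SE 0.153, adjusted p = 0.0838). The difference of 0.48 between CD11b+ and CD11b- AMs (adjusted p = 0.0184) was lost without CD11b+ AM replicate 3, the sample at 57.5 CPM (0.32, adjusted p = 0.0749). In KCs all samples lay between 28.2 and 55.2 CPM, and no comparison passed.

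The ferritin chains were among the most abundant transcripts of both tissues, and light and heavy chain behaved differently. *Ftl1* (chromosome 7, 45457944 to 45459884) stayed within 12339.8 to 18297 CPM over all 33 samples, and no comparison passed, with log2 fold changes between CRE+ and CRE- cells from -0.10 to 0.08. *Ftl1* and *Fth1* have many processed copies in the genome, and no row of such a copy held a count, so reads shared with copies may be missing from these values. *Fth1* (chromosome 19, 9980598 to 9985098) was at 12148, 12664, 13187, 12814 and 12275 CPM in CRE- AMs, at 15776, 16012, 17262, 17904 and 15884 CPM in CD11b- AMs, and at 30511, 26076, 27743, 28714 and 27709.9 CPM in CD11b+ AMs. The 3 groups were fully separate. The log2 fold change was 0.39 (SE 0.047, adjusted p = 3.95e-06) in CD11b- AMs, 1.15 (SE 0.047, adjusted p = 1.98e-13) in CD11b+ AMs and 0.75 (SE 0.047, adjusted p = 5.26e-10) between them. *Fth1* and *Ftl1* together took 2.93% ± 0.117 of the reads on genes in CRE- AMs, 3.38% ± 0.0306 in CD11b- AMs and 4.02% ± 0.175 in CD11b+ AMs (SD, n = 5 each).

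In KCs *Fth1* ran from 4374 to 5308 CPM in CRE- cells (median 4710.3), from 4437 to 6518 in Tim4+ cells (median 5744) and from 3778 to 6039 in Tim4- cells (median 4059). All groups overlapped, and neither CRE+ group passed against CRE- KCs (0.22 and -0.12, adjusted p = 0.337 and 0.484). *Fth1* was lower in the Tim4- sample of each of the 6 pairs of Tim4- and Tim4+ KCs with the same replicate number. Those numbers paired the samples of this comparison, and with the pairing as a block the difference of -0.34 passed (adjusted p = 0.00919), whereas without it the adjusted p was 0.0596. Without Tim4- KC replicate 1, the library with the fewest reads and the highest *Fth1* of its group, the unpaired difference was -0.45 (adjusted p = 0.00378). Within KC replicates 1 to 4 it was -0.20 (adjusted p = 0.438) and within replicates 5 and 6 -0.60 (adjusted p = 0.0153). Tim4- against CRE- KCs likewise had 0.03 (adjusted p = 0.921) in the first set and -0.42 (adjusted p = 0.0196) in the second.

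The ratio of *Fth1* to *Ftl1* reads within a sample does not depend on scaling between samples, and was examined after these values were seen. It was 0.335 ± 0.0248 in CRE- KCs, 0.389 ± 0.0428 in Tim4+ KCs and 0.329 ± 0.0462 in Tim4- KCs (SD, n = 6 each), and 0.781 ± 0.0445 in CRE- AMs, 0.974 ± 0.0952 in CD11b- AMs and 1.65 ± 0.0821 in CD11b+ AMs (SD, n = 5 each). The 3 AM groups and the 3 KC groups did not overlap each other, and neither did the AM groups among themselves. Tim4+ KCs were 0.0531 above CRE- KCs on average, and Tim4- KCs differed from CRE- KCs by -0.00675 and from Tim4+ KCs by -0.0598, with overlap in each case. As the ratio was formed with the values known, no test is given.

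**Figure D4:**
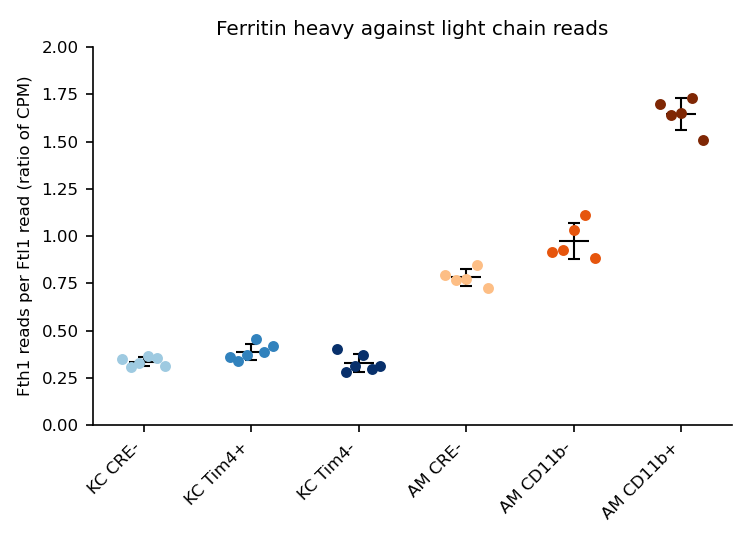
Ratio of *Fth1* to *Ftl1* CPM in every sample, with the mean and SD of each group in black. KCs lie between 0.282 and 0.456, and AMs rise from 0.781 on average in CRE- cells to 1.65 in CD11b+ cells.

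*Slc40a1* (chromosome 1, 45908068 to 45926523), the only known cellular iron exporter, kept its level in KCs within the spread between samples. It ran from 11113 to 15543 CPM in CRE- KCs (median 12813), from 10850.1 to 16527 in Tim4+ KCs (median 12000.2) and from 10319.6 to 15811 in Tim4- KCs (median 11186). The groups overlapped almost fully, and the log2 fold changes were -0.03 (SE 0.116, adjusted p = 0.936) in Tim4+ and -0.14 (SE 0.116, adjusted p = 0.419) in Tim4- KCs. The genes most like it over the 18 KC samples were *Txnrd1* (r = 0.839), *Prkci* (r = 0.817) and *Eif1* (r = 0.813). In AMs *Slc40a1* was at 19.2, 23.7, 30.2, 25.9 and 30.3 CPM in CRE- cells, at 36.7, 33.4, 37.6, 23.1 and 49.8 CPM in CD11b- cells, and at 24.4, 21.7, 21, 28.5 and 49.9 CPM in CD11b+ cells. These groups overlapped and did not pass (0.48 and 0.16, adjusted p = 0.118 and 0.604). The log2 difference between CRE- KCs and CRE- AMs was 8.997 (SE 0.172, adjusted p = 1.64e-14).

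*Spic* (chromosome 10, 88674772 to 88685015) was a KC gene at a moderate level. It ran from 67.4 to 134 CPM in CRE- KCs (median 91.8), from 101 to 195 in Tim4+ KCs (median 139) and from 97.8 to 204 in Tim4- KCs (median 126). The groups overlapped, and CRE- KC replicate 6 was the highest of its group. The log2 fold change was 0.56 (SE 0.188, adjusted p = 0.0926) in Tim4+ KCs and 0.49 (SE 0.188, adjusted p = 0.0605) in Tim4- KCs, neither past the threshold. DESeq2 called both (adjusted p = 0.0316 and 0.0246), as did edgeR without CRE- KC replicate 6 (0.68 and 0.61, adjusted p = 0.0366 and 0.0222). Within KC replicates 1 to 4 the values were 0.67 and 0.71 (adjusted p = 0.204 and 0.0465). Within replicates 5 and 6 they were 0.34 and 0.06 (adjusted p = 0.457 and 0.908). In AMs *Spic* had between 0 and 42 reads per sample, and no comparison of AM groups passed. The genes most like it over the 18 KC samples were *Gdf15* (r = 0.853), which itself averaged 1.68 CPM, *Gga2* (r = 0.846) and *Clec4n* (r = 0.844).

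Whether the 2 tissues changed differently was tested by an interaction term, the mean change of both CRE+ KC groups less that of both CRE+ AM groups. Of the 10 genes, 5 differed, all with the lower change in KCs, against 19.5% of all genes called and 9.52% in this direction. They were *Hmox1* (-1.42, SE 0.214, adjusted p = 5.37e-06), *Fth1* (-0.71, SE 0.121, adjusted p = 3.73e-05), *Tfrc* (-2.13, SE 0.33, adjusted p = 8.81e-06), *Slc11a1* (-1.60, SE 0.238, adjusted p = 4.47e-06) and *Cd163* (-8.07, SE 0.813, adjusted p = 3.12e-09). The size for *Cd163* again rests on the few reads in CRE- AMs. *Slc40a1* (-0.40, SE 0.221, adjusted p = 0.229) and *Ftl1* (-0.11, SE 0.088, adjusted p = 0.436) did not pass. Neither did *Spic* (-0.86, adjusted p = 0.434), *Slc11a2* (-0.52, SE 0.194, adjusted p = 0.0554) or *Blvrb* (-0.25, SE 0.1, adjusted p = 0.0809). DESeq2 called the last 2 (adjusted p = 0.0323 and 0.0409), as did the filter of 10 counts in every sample (adjusted p = 0.034 and 0.0491). Between the CRE+ groups themselves, Tim4- KCs had 2 of 10 genes called lower than Tim4+ KCs, *Hmox1* and *Cd163*, against 11.5% of all genes called and 7.62% lower, and CD11b+ AMs had 4 of 10 called higher than CD11b- AMs, *Cd163*, *Fth1*, *Tfrc* and *Slc11a2*, against 36.4% called and 19.8% higher.

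Markers of KCs and of other cell types moved with some of these groups. Of the 5 KC markers, 4 were called lower and 1 higher in Tim4+ KCs, against 2.46% of all genes lower. All 5 were called lower in Tim4- KCs, against 13.2%. In Tim4- KCs all 7 markers of liver endothelium were called lower than in CRE- KCs, and their sum ran from 311 to 478 CPM, compared with 409 to 1592 in CRE- KCs and 984 to 2782 in Tim4+ KCs, where none was called. None of the 8 hepatocyte markers was called between CRE+ and CRE- KCs. Of 4 monocyte markers tested in KCs (5 listed), *Ccr2* and *Cx3cr1* were called higher in both CRE+ groups, and the list summed to 75.9 to 309 CPM in CRE-, 106 to 367 in Tim4+ and 354 to 865 in Tim4- KCs. In AMs the 5 neutrophil markers found summed to 6.65 to 9.8 CPM in CRE- cells, 716 to 2299 in CD11b- cells and 7833 to 10087 in CD11b+ cells, where all 5 were called higher. Most of that sum was *S100a8* and *S100a9*. *Cxcr2* averaged 3.27 CPM in CRE-, 151 in CD11b- and 577 in CD11b+ AMs, and *Mmp9* and *Retnlg* averaged 14.7 and 2.85 CPM in CD11b+ AMs. Monocyte markers in CD11b+ AMs summed to 72.2 to 264 CPM, against 6.03 to 10.3 in CRE- AMs. Whether other cells or the sorted macs made these transcripts was not tested. Nor was the part of any such cells in the changes of *Hmox1*, *Cd163*, *Fth1* and the other genes above.

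Of 59 further genes listed for these pathways, 2 were called higher and 3 lower of 55 tested in Tim4+ KCs, where 6.09% of all genes were called, and 8 higher and 16 lower of 55 in Tim4- KCs, where 25.4% were. In CD11b- AMs it was 14 higher and 11 lower of 54, against 25.7% of all genes called, and in CD11b+ AMs 16 higher and 19 lower of 54, against 43.2%. Of the list of hemoglobin and red cell capture, 8 of 10 genes were lower and 1 higher in Tim4- KCs, with a median of -0.75, against 13.2% of all genes lower and a median of -0.031. The 8 include *Timd4*, the gene of the protein these cells were sorted to lack, and *Stab1*, *Stab2* and *Vcam1*, which liver endothelium also expresses. Besides *Cd163* and *Timd4*, its 4 smallest adjusted p-values included *Stab2* (-1.96, adjusted p = 7.37e-07), a scavenger receptor of sinusoidal endothelium, and *Lrp1* (-0.63, adjusted p = 0.000347), the receptor for heme bound to hemopexin. *Stab2* averaged 330.0 CPM in CRE- and 86 CPM in Tim4- KCs and fell beside the endothelial markers above. *Lrp1*, at 765 ± 52.8 CPM in CRE- KCs (SD, n = 6), was also called lower in CD11b- AMs (-0.59, adjusted p = 1.81e-05) and CD11b+ AMs (-0.67, adjusted p = 9.91e-07). In CD11b+ AMs 5 of 9 genes of the capture list were called higher and 4 lower, against 43.2% of all genes called. *Cd36*, a scavenger receptor for lipids and apoptotic cells, was higher by 1.30 in log2, and *Stab1* went from 0.00896 CPM in CRE- AMs to 14.3 ± 6.83 CPM (SD, n = 5) in CD11b+ AMs.

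**Figure D5:**
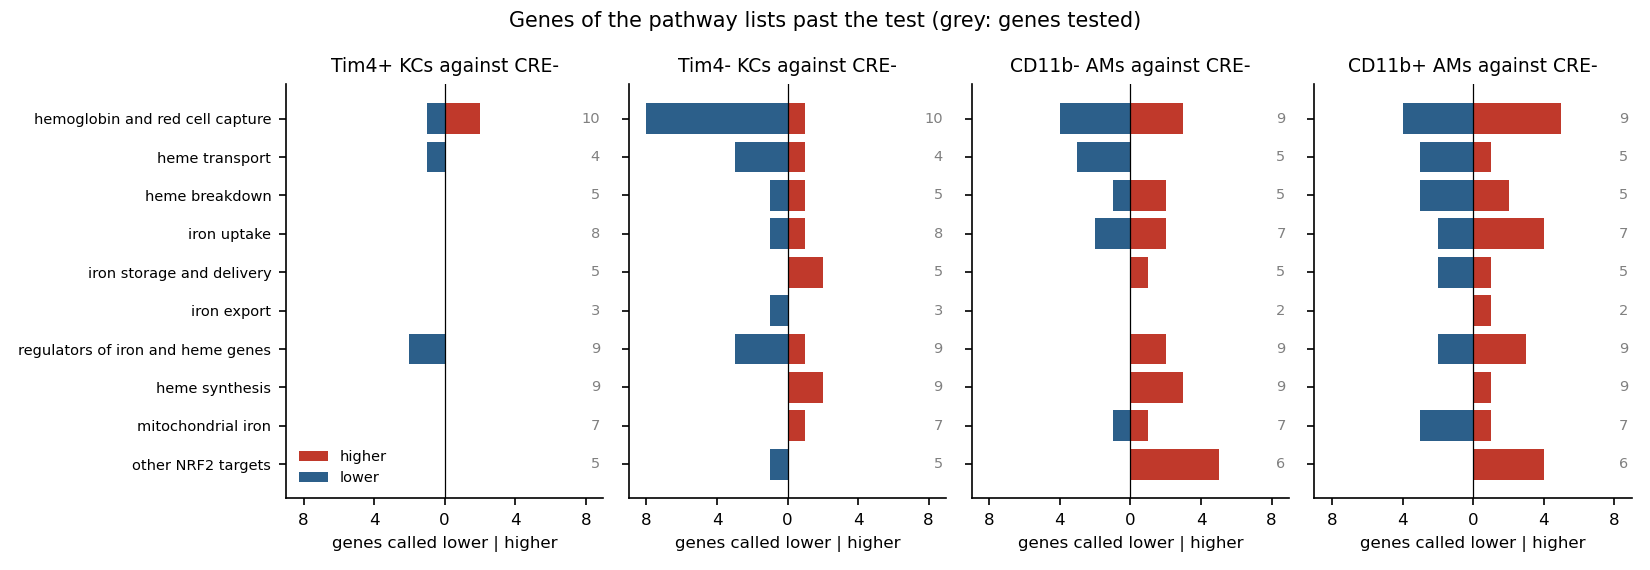
Number of genes of each pathway list called lower (blue, to the left) or higher (red, to the right) in each CRE+ group against CRE- cells of the same tissue, with the number of genes tested in grey. The capture list reaches 8 lower in Tim4- KCs, and the list of other NRF2 targets 5 higher in CD11b- AMs.

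Other targets of NRF2, the transcription factor that also drives *Hmox1*, were listed too. Of 6 tested, 5 were called higher in CD11b- AMs, against 13.3% of all genes, and 4 in CD11b+ AMs, against 22.8%, with medians of 0.64 and 0.53 beside 0.003 and -0.005 over all genes. They included *Slc7a11*, the cystine importer (1.91 and 2.14, adjusted p = 1.01e-05 and 6.25e-07), *Srxn1* (0.65 and 0.63, adjusted p = 0.000705 and 0.000381) and *Gclm*, a subunit of the glutathione-making ligase (0.64 and 0.43, adjusted p = 0.000162 and 0.0027). In Tim4- KCs 1 of 5 tested was called, *Gclm*, with -0.33 (adjusted p = 0.0269). *Nfe2l2*, which encodes NRF2, was higher in CD11b+ AMs (0.32, adjusted p = 0.0215) and in Tim4- KCs (0.32, adjusted p = 0.0138), where *Hmox1* was lower. Whether NRF2 had a part in the changes of *Hmox1* or of these targets was not tested.

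Among regulators, *Hfe*, which signals body iron, and *Aco1*, which encodes iron regulatory protein 1, were lower in both CRE+ KC groups and in CD11b+ AMs. *Hfe* had log2 fold changes of -0.46 (adjusted p = 0.000447) in Tim4+ KCs, -0.50 (adjusted p = 4.96e-05) in Tim4- KCs and -0.87 (adjusted p = 1.87e-06) in CD11b+ AMs. *Aco1* had -0.41 (adjusted p = 0.000545), -0.50 (adjusted p = 1.89e-05) and -0.48 (adjusted p = 2.87e-06). *Fbxl5*, whose product marks iron regulatory protein 2 for degradation when iron is present, was higher in CD11b- (0.24, adjusted p = 0.0208) and CD11b+ AMs (0.56, adjusted p = 2.41e-06) and did not pass in KCs. Of the heme synthesis list, *Alas1*, the rate-limiting enzyme, was higher in both CRE+ AM groups (0.35 in each, adjusted p = 0.000208 and 6.5e-05) and in Tim4- KCs (0.37, adjusted p = 0.0338), and the list as a whole had 3, 1 and 2 of 9 members called there, shares near or below those of all genes (25.7%, 43.2% and 25.4%).

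Of the 7 genes of the iron uptake list tested in CD11b+ AMs, 4 were called higher and 2 lower, against 43.2% of all genes called and 22.8% higher, and 3 of the 4 are among the 10 genes above. *Slc39a8*, a zinc and iron importer, was higher by 1.73 in log2 (adjusted p = 0.000908) and *Slc39a14* lower, at -0.77 (adjusted p = 6.69e-07). *Steap3*, an endosomal ferrireductase, was lower in Tim4- KCs (-1.04, adjusted p = 0.00113) and in both CRE+ AM groups (-1.19 and -1.16, adjusted p = 0.00286 and 0.00166). *Mfsd7c*, also named *Flvcr2*, was an AM gene at 326 CPM in CRE- AMs that was lower in CD11b- (-0.54, adjusted p = 1.17e-05) and CD11b+ AMs (-0.87, adjusted p = 4.01e-09). *Abcg2* and *Slc46a1*, both known to carry heme among other substrates, were lower in Tim4- KCs (-0.50 and -0.68, adjusted p = 0.00959 and 0.000148), and *Abcg2* also in Tim4+ KCs (-0.48, adjusted p = 0.0373). *Mfsd7b*, also named *Flvcr1*, a heme exporter, was higher in Tim4- KCs (0.43, adjusted p = 0.00144). *Ncoa4*, the receptor that delivers ferritin to lysosomes, was called lower in CD11b+ AMs by 0.23 in log2 (adjusted p = 0.0237), beside the rise of *Fth1*.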

How the data were processed

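25000 KCs or AMs per sample were FACS-purified from PBS-perfused tissue and sequenced in bulk. Reads were trimmed by the authors with Trimmomatic 0.35 (quality 20, minimum length 35), mapped with TopHat2 2.1.0 and counted with HTSeq-count, with mm10 as the build given in the submitters' processing notes. The authors deposited raw counts per gene symbol. Each file held 24421 genes and 5 tally rows, 5.88% to 10.1% of reads, which were left out. Whether reads were counted by strand is not given in the sources used here. Groups and replicate numbers came from the labels, which do not say that samples are separate animals, so p-values measure the spread between samples, which may be technical.

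The main test was the quasi-likelihood test of edgeR 4.0.16 in R 4.3.3, with TMM and filterByExpr, in a fit of the 18 KC, 15 AM, 11 CRE- or all 33 samples. P-values were adjusted by Benjamini-Hochberg over all genes tested, and a gene was called with an adjusted p-value under 0.05. The SE is the log2 fold change divided by the square root of F. CPM used TMM factors over all samples, and log2 CPM a prior count of 0.5. Intervals are not given for single samples, and p-values rest on the spread between samples. Scripts were tested on simulated data. Alternatives were limma-voom 3.58.1, which the study's methods name, DESeq2 1.42.0, RLE factors, other filters, a fold cut-off (absolute log2 fold change above 1), fits of fewer or more groups, a covariate of *Ddx3y* (Y-linked), KC replicate sets, a block of replicate numbers, all-exon lengths (added after seeing the data) and each sample left out. Positions, transcript lengths and stem-loops came from GENCODE M21, read with Python 3.11.15.

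The 10 genes, pathway lists and markers were chosen with earlier results of these data known. Named are all 10 genes, up to 4 genes per pathway list with the smallest adjusted p-values in a comparison (*Slc48a1*, *Stab2* and the like), the 3 genes most like *Slc40a1*, *Hmox1* and *Spic* over KC samples, and *Zeb2*, *Timd4* and *Itgam* as checks. *Ahsp*, *Ly6g*, *Ighm* and *Trac* were not found among the rows. Replicate numbers were taken to pair samples where every same-numbered pair of deviations from the group means correlated above 0.1 across genes. This held for Tim4- and Tim4+ KCs (r from 0.112 to 0.251 over 6 pairs), where the pairing comes from the data and not from the labels.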

Additional observations from a re-analysis of the deposited data

Results flagged for a closer look

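In 7 of 60 combinations of gene and group, 1 sample lay far from the others of its group by Dixon's test. The nominal rate of this rule is 1 in 20 per group, and its rate in data of this kind was not measured. The *Slc40a1* level was 15811 CPM in Tim4- KC replicate 1, against at most 12207 CPM in the others, and 49.9 CPM in CD11b+ AM replicate 5. Without the latter, *Slc40a1* was called lower in CD11b+ than in CD11b- AMs (-0.61, adjusted p = 0.0139). *Ftl1* was at 17105 CPM in CRE- KC replicate 6 and at 18113 CPM in Tim4+ KC replicate 1, each the highest of its group. Without CRE- KC replicate 6, *Ftl1* passed the test between control KCs and control AMs, with KCs lower (-0.20, adjusted p = 0.00582). *Tfrc* was at 1.48 CPM in CRE- AM replicate 5, *Slc11a1* at 1144 CPM in CRE- KC replicate 3 and *Blvrb* at 65.5 CPM in CD11b- AM replicate 4, each the lowest of its group.

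For 5 genes the change of CRE+ against CRE- cells differed between KCs and AMs by the interaction test. The log2 differences were -1.422 for *Hmox1*, -8.074 for *Cd163*, -0.71 for *Fth1*, -2.126 for *Tfrc* and -1.603 for *Slc11a1*. Tissue and Cre line cannot be told apart in these differences.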

How the results depend on the processing

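The number of the 10 genes called moved by more than 1.5 times as follows. With DESeq2 it was 2 in place of 1 in Tim4+ KCs and 4 in place of 2 between Tim4- and Tim4+ KCs. With the fold cut-off it was 2 in Tim4- KCs, 2 in CD11b- AMs and 1 between CD11b+ and CD11b- AMs. With the replicate number as a block it was 2 in Tim4+ KCs, and, within 1.5 times, 3 between Tim4- and Tim4+ KCs, and *Spic* was then called in Tim4+ (adjusted p = 0.0119) and Tim4- KCs (adjusted p = 0.0108), where the samples share only a number. The cause of these moves was not tested, apart from the fold cut-off, which can only remove calls. Leaving out each sample in turn gave 1 to 3 calls in Tim4+ KCs, 3 to 5 in Tim4- KCs, 2 to 4 between Tim4- and Tim4+ KCs, 5 to 6 in CD11b- AMs, 7 to 7 in CD11b+ AMs, 1 to 5 between CD11b+ and CD11b- AMs, 9 to 10 between CRE- KCs and CRE- AMs, and 5 to 7 for the interaction. The samples whose omission moved a count by more than 1.5 times were CRE- KC replicate 6 (2) and Tim4+ KC replicate 2 (3) in Tim4+ KCs, Tim4- KC replicate 1 (4) between Tim4- and Tim4+ KCs, and CD11b- AM replicate 1 (2) and CD11b+ AM replicate 3 (1) between the CRE+ AM groups.

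Of 768 values of single genes under the other alternatives, 19 lost and 25 gained a call, as did 20 and 28 of 1100 with a sample left out, and no called value changed direction. The falls of *Cd163* in both CRE+ KC groups and the rises of *Fth1* and *Tfrc* in both CRE+ AM groups kept their call under every alternative but the fold cut-off, which *Fth1* in CD11b- AMs did not pass. Depth limits *Cd163* and *Spic* in AMs, where 3 reads correspond to 0.125 to 0.172 CPM. Adding the reads of *Ftl1* copies was not run, as no row of a copy held a count. At least 10 counts in every sample, or a fit of only the groups compared, left some genes untested, and these have no value there.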

Other observations

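Transferrin and haptoglobin, genes listed here as hepatocyte markers and named after their values were seen, rose in CD11b+ AMs while *Ttr* and *Alb* had no read in these cells. *Trf*, the plasma carrier of iron, averaged 3301 CPM in CRE- AMs, 3230.1 in CD11b- AMs and 8255 in CD11b+ AMs (n = 5 each), with log2 fold changes of -0.03 (adjusted p = 0.825) and 1.31 (SE 0.078, adjusted p = 4.57e-11) against CRE- AMs in edgeR's quasi-likelihood test. In KCs it averaged 2376 CPM in CRE- cells and neither CRE+ group passed. *Hp*, whose product binds free hemoglobin for uptake by CD163, rose from 2.7 CPM in CRE- AMs to 5.39 in CD11b- (0.99, adjusted p = 0.00604) and 15.2 CPM in CD11b+ AMs (2.48, adjusted p = 1.18e-07). The sum of neutrophil markers given above also rose in both CRE+ AM groups. The part of such cells in the changes of *Trf* and *Hp* was not tested.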
